A study of Mus musculus with 10 samples.

Results

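The collagen genes described here are the 44 genes of the mouse count data whose symbol is Col, a type number, the letter a and a chain number. They were found among 55414 gene identifiers, of which 52081 have a symbol. All 44 had at least 10 counts in at least 5 libraries and entered the test of 17490 genes. They were grouped by textbook class into 11 fibrillar chains, 6 basement membrane (type IV) chains, 6 type VI chains, 9 fibril-associated (FACIT) chains, 3 short chains, 2 multiplexins, 4 transmembrane chains and 3 others.

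RNA was measured by bulk sequencing of dorsal root ganglia (DRG), the clusters of sensory neurons and glia beside the spinal cord, from 10 embryos at E18.5. All 10 embryos carried *Dach1* flox/flox, in which an exon of the transcription factor gene *Dach1* is flanked for deletion. The 5 *WD1* cKO embryos also carried *Wnt1*-Cre (*Wnt1* Cre/+), which acts in the neural crest, the source of DRG neurons and glia, and the 5 control embryos, described as littermates, carried no Cre. The floxed line was of mixed C57Bl/6J and CD1 background. Vessel endothelium, skeletal muscle and the cartilage of the vertebrae arise outside the crest, so the deletion is not made in those cells where they are carried with the ganglia. In the labels, the genotype field of each group gives the genotype that belongs to the other, in conflict with the sample titles, and groups were taken from the titles. *Dach1* lay between 35.1 and 41.6 CPM (counts scaled to a common library size) in the libraries titled control and between 19.1 and 20.7 CPM in those titled *WD1* cKO, so the lower level of the targeted gene goes with the titles. Which embryos shared a litter is not given in the sources used here, so p-values measure the spread between these 10 libraries.

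Collagens are trimers of alpha chains wound into a triple helix, and glycine, the smallest residue, must recur at a fixed short spacing for the helix to close. Fibrillar collagens have 1 long unbroken helix and pack into striated fibrils, type IV chains carry interruptions and join into the sheet of the basement membrane, and the other classes decorate fibrils, form beaded filaments or sit in cell membranes. In a DRG, fibroblasts and perineurial cells make the capsule and the connective tissue between fascicles, and satellite glia, Schwann cells and vessels each lie on a basement membrane.

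The stretches below, of 54 bases each, are shown because they carry the feature that separates the 4 fibrillar genes with the highest CPM from the type IV chains whose values are given later. Capitals mark the codons of the helix glycines, and each stretch is coding sequence of GENCODE transcripts on GRCm38, printed in the sense of the gene.
Col3a1 (chr1:45325360-45325413, plus strand): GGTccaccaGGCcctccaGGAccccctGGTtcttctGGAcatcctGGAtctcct
Col5a2 (chr1:45434892-45434945, minus strand): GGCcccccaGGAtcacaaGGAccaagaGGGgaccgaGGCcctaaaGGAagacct
Col1a2 (chr6:4515481-4515534, plus strand): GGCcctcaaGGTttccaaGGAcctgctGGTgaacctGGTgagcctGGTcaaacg
Col1a1 (chr11:94939904-94939957, plus strand): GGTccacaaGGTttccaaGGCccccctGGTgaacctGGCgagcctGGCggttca
Col4a1 (chr8:11235147-11235200, minus strand): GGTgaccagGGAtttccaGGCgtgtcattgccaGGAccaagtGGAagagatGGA
Col4a5 (chrX:141599738-141599791, plus strand): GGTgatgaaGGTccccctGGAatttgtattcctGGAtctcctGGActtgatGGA
Col4a6 (chrX:141203823-141203876, minus strand): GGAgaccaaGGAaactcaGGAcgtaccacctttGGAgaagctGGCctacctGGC

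Each stretch holds 6 glycine codons in capitals. These are evenly spaced in the 4 fibrillar chains and interrupted once in each of the 3 type IV chains. In the *Col1a1* stretch the codon after the last capitals, in lower case, also codes for glycine, outside the even spacing. Over the whole coding sequence, the longest run of evenly spaced glycine codons counted from 337 to 344 repeats in 9 of the 11 fibrillar genes and was 216 in *Col24a1* and 217 in *Col27a1*. In the type IV genes it lay between 39 in *Col4a3* and 66 in *Col4a2*. The fibrillar genes also held between 21 and 33 coding exons of exactly 54 bases, and the type IV genes between 1 and 3.

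The levels of the 44 genes spanned more than 3 orders of magnitude. For levels between genes, CPM were divided by exon length in kilobases (CPM per kb), and the mean over the 10 libraries was used. *Col1a1* had the highest level, 195 CPM per kb, followed by *Col3a1* with 186 and *Col4a1* with 136. The lowest was *Col17a1*, a transmembrane chain of skin hemidesmosomes, with 0.0695 CPM per kb. Among 17449 tested genes with a length, *Col1a1* ranked 103, *Col3a1* 114, *Col4a1* 168 and *Col17a1* 17402. Of the 44, 7 were among the 1000 highest genes and 14 were at or below rank 10000. On the CPM scale, 4 genes had a mean of at least 1000, 15 lay between 100 and 1000, 15 between 10 and 100, 9 between 1 and 10, and 1 under 1 CPM.

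**Figure D1:**
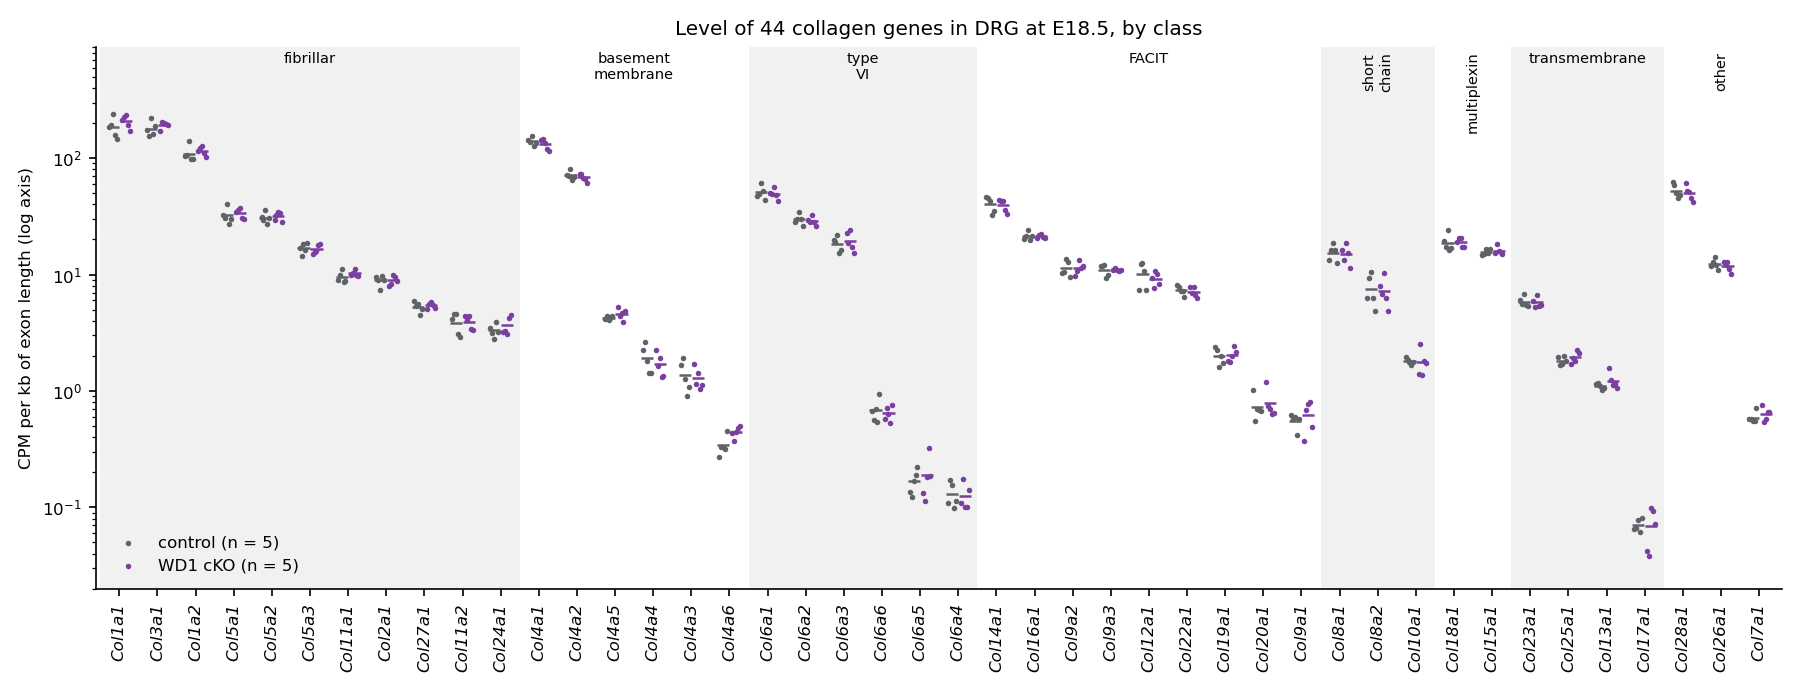
Level of each of the 44 collagen genes in CPM per kb of exon length (log axis), ordered by class and level, with 5 control (grey) and 5 *WD1* cKO (purple) libraries as points, in replicate order from left to right, and group means as lines. Within most classes the levels drop by over an order of magnitude from the first to the last chain, from 195 to 3.49 CPM per kb in the fibrillar and from 136 to 0.393 in the basement membrane class, while the groups overlap for every gene.

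The fibrillar class held the largest share of the summed collagen level per kb in each library. Its share was 50.3%, 49.6%, 53.8%, 50.1% and 51.5% in control replicates 1 to 5 and 51.2%, 54.3%, 54.1%, 54.6% and 54.7% in *WD1* cKO replicates 1 to 5. Control replicate 3 lay among the *WD1* cKO values and *WD1* cKO replicate 1 among the control values, so the groups overlapped. *Col1a1*, *Col1a2* and *Col3a1*, the chains of types I and III that make up most fibrils of soft tissue, alone held 41.3% ± 1.81 (SD, n = 5) in control and 44.0% ± 1.18 (SD, n = 5) in *WD1* cKO embryos. The basement membrane class came next, with 19.2% ± 0.709 (SD, n = 5) in control and 17.8% ± 0.960 (SD, n = 5) in *WD1* cKO embryos. The FACIT class held 9.20% and 8.80%, type VI 8.77% and 8.45%, the 3 chains outside the named classes 5.79% and 5.37%, the multiplexins 3.02% and 2.99%, the short chains 2.15% and 2.04%, and the transmembrane chains 0.780% and 0.773%, as group means in control and *WD1* cKO. Collagen genes took 0.916% ± 0.112 (SD, n = 5) of all counts in control and 0.946% ± 0.0699 (SD, n = 5) in *WD1* cKO libraries. The shares are a description, with no test over the members. In bulk samples, fewer cells of a type and less RNA per cell cannot be told apart.

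Loss of *Dach1* in the crest left no collagen gene past the adjusted threshold. By edgeR's quasi-likelihood test, adjusted by Benjamini-Hochberg over all genes, 0 of the 44 had an adjusted p under 0.05 (adjusted p = 1.00 for each of them), where 7 of the 17490 genes tested did (0.0400%). Without adjustment, 1 of the 44 had a p under 0.05, the basement membrane chain *Col4a6*, against 4.50% of all genes tested. With DESeq2's Wald test these counts were also 0 and 1. A cut-off taken from the study, which joins an unadjusted p under 0.005 to a log2 change beyond 0.15 in size, was passed by 0 of the 44 and by 0.383% of all genes. The 5 control and 5 *WD1* cKO libraries did not overlap for 0 of the 44, against 1.06% of all genes. By direction, 22 members were higher and 22 lower in *WD1* cKO embryos.

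The median log2 fold change of the 44, *WD1* cKO against control, was 0.0016, beside 0.00022 over all genes tested. The median absolute value was 0.061, beside 0.053. The values ran from -0.17 in *Col4a4* to 0.39 in *Col4a6*, and 43 of the 44 lay within 0.2 of no change on the log2 scale. For 39 of the 44, the 95% interval of the fold change stayed within 1.5-fold in both directions, which bounds a change that these libraries could still hold. The intervals were widest for chains of low level, and that of *Col17a1* ran from 0.640 to 1.52 as a fold.

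**Figure D2:**
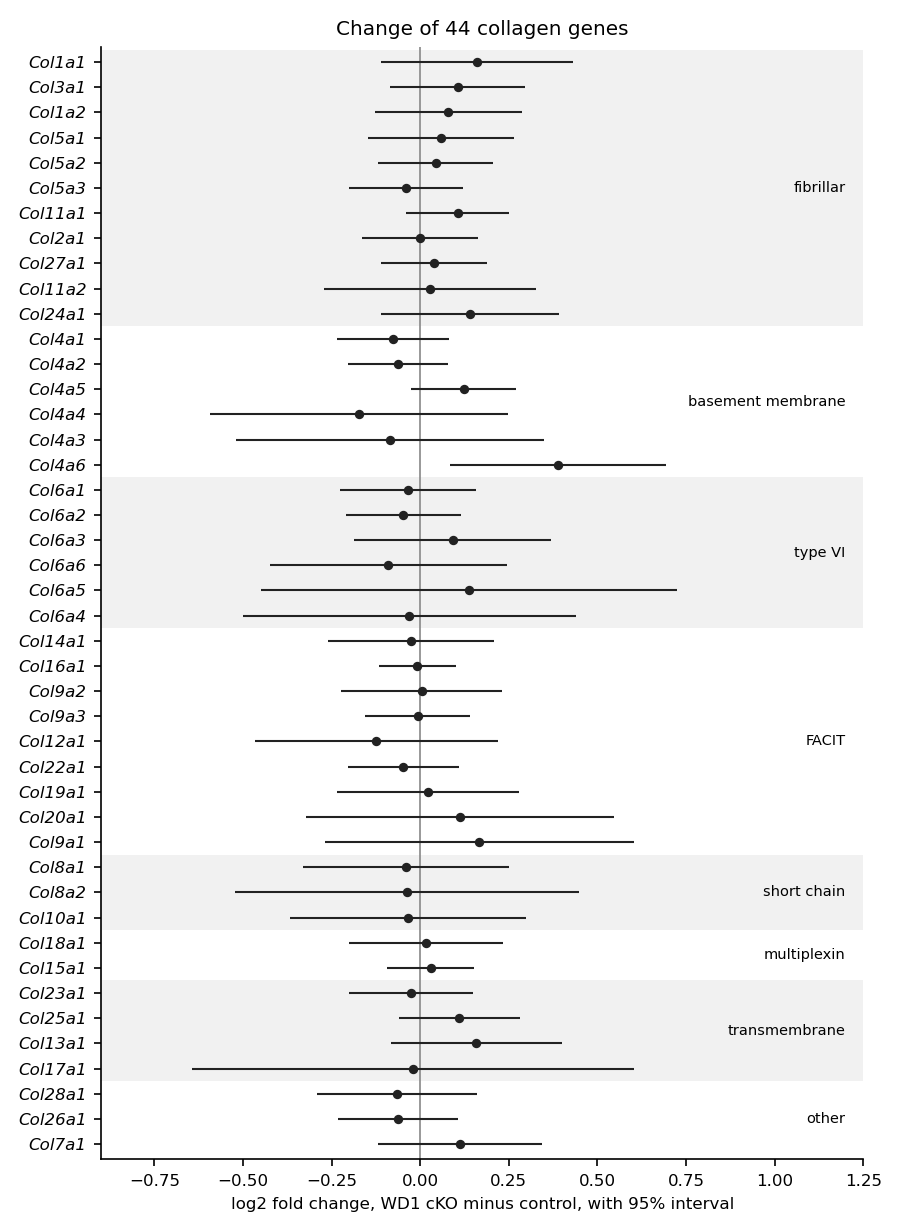
Log2 fold change of each collagen gene, *WD1* cKO minus control, with its 95% interval from edgeR's quasi-likelihood fit, grouped by class (shaded bands). The intervals of 43 of the 44 genes include 0, and that of *Col4a6* lies above it.

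Of the fibrillar chains, 9 of 11 were higher in *WD1* cKO embryos, with a median log2 fold change of 0.059, but 0 of 11 had an unadjusted p under 0.05. The chains share their libraries and are not independent of each other. Over all genes tested, 50.1% were higher.

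*Col3a1* (ENSMUSG00000026043), the single chain of type III collagen in distensible tissue and vessel walls, was at 1697, 1511, 2158, 1582 and 1865 CPM in control replicates 1 to 5 and at 1687, 2012, 1953, 1937 and 1895 CPM in *WD1* cKO replicates 1 to 5. Control replicate 3 was the highest of the 10 and control replicate 2 the lowest, so the control libraries enclosed all *WD1* cKO libraries. Its log2 fold change was 0.11 (standard error 0.088, 95% interval from -0.085 to 0.30).

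*Col1a2* (ENSMUSG00000029661), the minor chain of type I collagen, was at 1287, 1315, 1735, 1232 and 1210 CPM in control and at 1426, 1516, 1586, 1373 and 1261 CPM in *WD1* cKO replicates. Apart from control replicate 3, the control libraries lay at or below 1315 CPM, and 4 of the 5 *WD1* cKO libraries lay above that. The groups differed by 0.079 on the log2 scale (standard error 0.096, 95% interval from -0.13 to 0.29).

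*Col1a1* (ENSMUSG00000001506), the major chain of type I collagen, was at 1217, 1267, 1580, 1031 and 960 CPM in control and at 1388, 1476, 1525, 1255 and 1124 CPM in *WD1* cKO replicates. Replicates 4 and 5 were the lowest of both groups, and control replicate 3 was again the highest library. This gave a log2 fold change of 0.16 (standard error 0.12, 95% interval from -0.11 to 0.43).

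*Col5a2* (ENSMUSG00000026042), a chain of the type V collagen that starts fibrils and limits their width, was at 298, 284, 343, 260 and 293 CPM in control and at 285, 311, 332, 326 and 270 CPM in *WD1* cKO replicates. Control replicates 3 and 4 held the highest and the lowest value. Between the groups, the log2 difference was 0.043 (standard error 0.075, 95% interval from -0.12 to 0.21). The other fibrillar chains had log2 fold changes from -0.040 in *Col5a3* to 0.14 in *Col24a1*. *Col2a1* and *Col11a2*, chains of cartilage fibrils, had log2 fold changes of -0.00047 and 0.027.

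**Figure D3:**
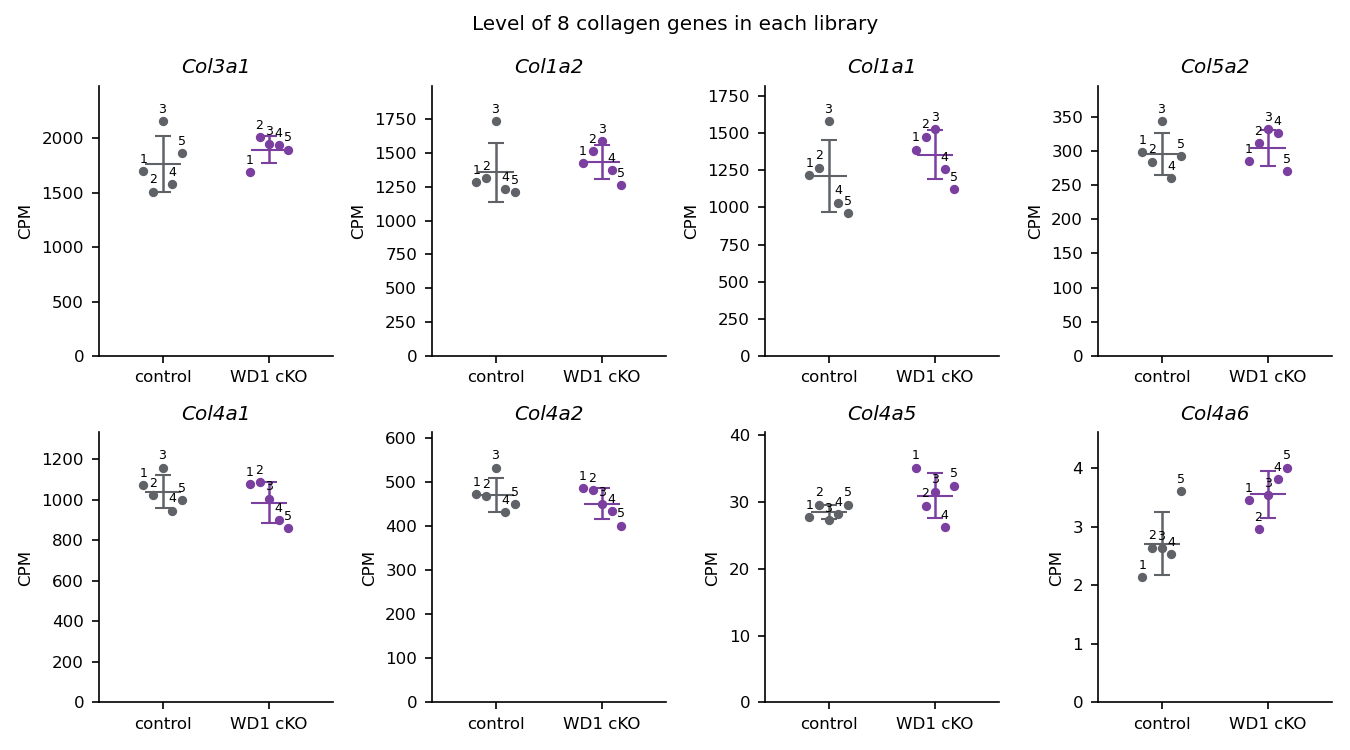
CPM of 8 collagen genes in each library, with replicate numbers beside the points and mean ± SD of 5 libraries per group. Control replicate 3 is the highest of the 10 libraries for *Col3a1*, *Col1a2*, *Col1a1*, *Col5a2*, *Col4a1* and *Col4a2*, and for *Col4a6* all 5 *WD1* cKO libraries lie above 4 of the 5 control libraries.

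The fibrillar values moved with single libraries. The class median of 0.059 was 0.10 without control replicate 3, and it was 0.021 when *WD1* cKO replicate 3 was left out, 0.030 when it was control replicate 4 and 0.038 when it was *WD1* cKO replicate 2. Without control replicate 3, 6 of the 44 members had an unadjusted p under 0.05, against 4.54% of all genes, and all 6 were higher in *WD1* cKO embryos. They were *Col4a6* and the fibrillar chains *Col1a1*, *Col1a2*, *Col3a1*, *Col5a1* and *Col11a1*. In that fit the log2 fold changes were 0.28 in *Col1a1* (standard error 0.10), 0.19 in *Col3a1* (standard error 0.067), 0.18 in *Col1a2* (standard error 0.062), 0.17 in *Col11a1* (standard error 0.053) and 0.15 in *Col5a1* (standard error 0.069). The smallest adjusted p among the 44 in that fit was 1.00 by edgeR's quasi-likelihood test. Without that library, 30 of the 44 were higher.

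Control replicate 3 had the highest value of the 10 libraries for 18 of the 44 members and the highest control value for 7 of the 11 fibrillar chains. The share of all genes that were highest in that library was not counted, so neither count is read as particular to collagen genes. Control replicate 3 also stood apart in spinal cord markers. For meninges and fibroblast markers it was the highest control library but lay below *WD1* cKO replicate 3. The summed level of 5 spinal cord genes (*Slc6a5*, *Pax2*, *Olig1*, *Olig2* and *Slc32a1*) was 15.3 CPM there and between 0.0736 and 0.484 CPM in the other control libraries. The *WD1* cKO libraries held between 0.126 and 1.32 CPM of those genes. The highest of these, *WD1* cKO replicate 3, also had the highest value of its group for 7 of the 11 fibrillar chains. Meninges markers summed to 168 CPM in control replicate 3 and to between 91.3 and 149.8 CPM in the other control libraries. Fibroblast markers summed to 388 CPM there, beside 321 to 379.8 CPM. In *WD1* cKO replicate 3 both sums, 182 and 407 CPM, were the highest of that group. Skeletal muscle markers followed this order in *WD1* cKO, with 95.7 CPM in replicate 3 and 45.3 to 58.9 CPM in the others. They did not in control, with 101 CPM in control replicate 3 and 176 CPM in control replicate 5. Endothelial (301 and 295 CPM) and cartilage sums (47.8 and 45.0 CPM) were also highest in replicate 3 of control and *WD1* cKO. Bone, mural, perineurium, glia and sensory neuron sums were highest in other libraries of each group. The part of carried tissue in the collagen values was not tested.

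**Figure D4:**
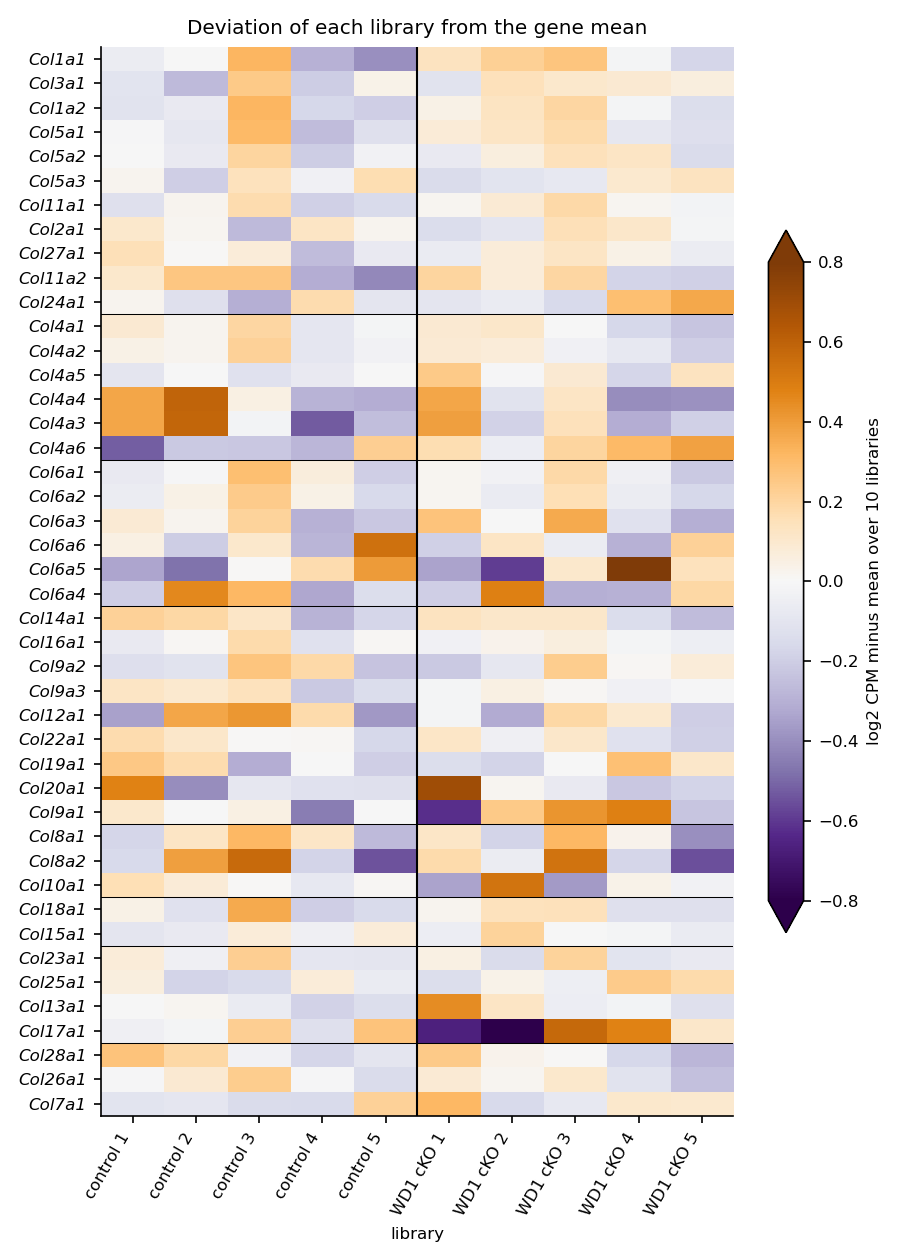
Log2 CPM of each collagen gene (rows, by class) in each library (columns, control left and *WD1* cKO right), as the difference from the gene's mean over 10 libraries. Control replicate 3 is the highest library for 18 genes, a count made without its share over all genes. Replicates 4 and 5 both lie below replicates 1 to 3 of their own group for 14 genes.

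Libraries numbered 4 and 5 were low for many collagen genes in both groups. For 14 of the 44, both lay under replicates 1 to 3 of the same group, in control and in *WD1* cKO alike, against 7.15% of all genes tested. The 14 included *Col1a1*, *Col1a2*, *Col4a1* to *Col4a4*, *Col14a1*, *Col18a1* and *Col28a1*. In the opposite direction it was 1 of the 44, *Col6a5*, against 8.24% of all genes. No source used here says what the numbers stand for, and this count is a description made with earlier results of these data known.

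The basement membrane class had a median log2 fold change of -0.070, with 2 of 6 chains higher and 4 lower. With single libraries left out the median lay between -0.10, without *WD1* cKO replicate 1, and 0.023, without control replicate 2, the 1 case in which it changed sign. *Col4a1* (ENSMUSG00000031502) and *Col4a2* (ENSMUSG00000031503) make the type IV network found in nearly all basement membranes. *Col4a1* was at 1073, 1023, 1159, 948 and 998 CPM in control and at 1077, 1087, 1005, 900 and 862 CPM in *WD1* cKO replicates. *WD1* cKO replicates 4 and 5 were the lowest of the 10, while the other 3 lay within the control values. Its log2 fold change was -0.077 (standard error 0.073, 95% interval from -0.24 to 0.082).

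*Col4a2* was at 473, 468, 534, 433 and 451 CPM in control and at 487, 483, 450, 435 and 402 CPM in *WD1* cKO replicates. The order of the libraries was close to that of *Col4a1*, with control replicate 3 highest and *WD1* cKO replicate 5 lowest. The groups differed by -0.063 on the log2 scale (standard error 0.064, 95% interval from -0.20 to 0.078). On GRCm38 the starts of both genes lie 21 bases apart on chromosome 8, on opposite strands.

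*Col4a3* and *Col4a4*, which join with *Col4a5* in the basement membranes of kidney, lung and inner ear, are also paired head to head, with starts 72 bases apart on chromosome 1. *Col4a3* had a mean of 13.7 ± 4.25 CPM (SD, n = 5) in control and of 12.9 ± 2.71 CPM (SD, n = 5) in *WD1* cKO embryos. *Col4a4* lay between 15 and 28 CPM in the control and between 14.1 and 24.1 CPM in the *WD1* cKO libraries, so the groups overlapped. With coefficients of variation of 31.1% and 27.9% over the control libraries, they were among the most variable members. The median over the 44 was 13.2% in control and 11.5% in *WD1* cKO.

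*Col4a6* (ENSMUSG00000031273), a chain of smooth muscle and epithelial basement membranes, was the member with the largest value and the lowest p. It was at 2.15, 2.65, 2.64, 2.54 and 3.61 CPM in control and at 3.45, 2.96, 3.54, 3.81 and 4.01 CPM in *WD1* cKO replicates. Every *WD1* cKO library lay above control replicates 1 to 4, and control replicate 5 lay among the *WD1* cKO libraries. This gave a log2 fold change of 0.39 (standard error 0.14, 95% interval from 0.084 to 0.69), a fold of 1.31 with an interval from 1.06 to 1.62, and its adjusted p was 1.00 by edgeR's quasi-likelihood test. Its counts were low, with 44 in the library that had fewest.

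*Col4a6* lies on the X chromosome, head to head with *Col4a5*, whose start is 1309 bases away on GRCm38. *Xist*, which is transcribed from the inactive X of females, was above 100 CPM in control replicates 2 and 5 and in *WD1* cKO replicates 1, 3, 4 and 5, thus in 2 of 5 and 4 of 5 libraries. Among those 6 libraries, *Col4a6* was at 2.65 and 3.61 CPM in control and between 3.45 and 4.01 CPM in *WD1* cKO. Among the other 4, it was between 2.15 and 2.64 CPM in control and at 2.96 CPM in *WD1* cKO replicate 2. With the level of *Xist* as a covariate, an alternative chosen after seeing the data, its log2 fold change was 0.26 and 0 of the 44 members had an unadjusted p under 0.05. In that fit the fibrillar class median was 0.10, beside 0.059 without the covariate, and the basement membrane median was -0.034, beside -0.070.

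*Col4a5* (ENSMUSG00000031274) was at 28.4 ± 1.07 CPM in control and 30.9 ± 3.33 CPM in *WD1* cKO embryos (SD, n = 5 in each group). It was the least variable member over the control libraries, with a coefficient of variation of 3.76%. Between the groups, the log2 difference was 0.12 (standard error 0.068, 95% interval from -0.026 to 0.27).

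Type VI collagen forms beaded filaments close to cells, and its trimer is built from the chains of *Col6a1* and *Col6a2* with a larger chain. The median log2 fold change of its 6 genes was -0.033. *Col6a2* (ENSMUSG00000020241) was at 234, 251, 289, 251 and 219 CPM in control and at 246, 233, 273, 234 and 217 CPM in *WD1* cKO replicates. Replicate 3 was the highest and replicate 5 the lowest of each group. Its log2 fold change was -0.048 (standard error 0.074, 95% interval from -0.21 to 0.11). Of the possible larger chains, *Col6a3* was at 19.0 CPM per kb, whereas *Col6a6* was at 0.664, *Col6a5* at 0.178 and *Col6a4* at 0.127 CPM per kb.

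FACIT collagens coat fibrils without forming them. Their median log2 fold change was -0.0068, with 4 of 9 higher. *Col14a1* (ENSMUSG00000022371), the most abundant, was at 323, 317, 300, 227 and 246 CPM in control and at 305, 299, 299, 252 and 232 CPM in *WD1* cKO replicates. In both groups replicates 1 to 3 lay above replicates 4 and 5, and the groups overlapped. The groups differed by -0.026 on the log2 scale (standard error 0.11, 95% interval from -0.26 to 0.21). *Col16a1* followed with 21.3 CPM per kb, and its groups differed by -0.0078 on the log2 scale. Of the type IX chains of cartilage, *Col9a2* and *Col9a3* were at 11.4 and 11.0 CPM per kb, and *Col9a1* at 0.590.

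Among the remaining classes, *Col28a1* (ENSMUSG00000068794), a type known from peripheral nerve and DRG, had the highest level. It was at 303, 286, 246, 223 and 235 CPM in control and at 298, 256, 251, 223 and 207 CPM in *WD1* cKO replicates. The groups overlapped over most of their range, with replicates 4 and 5 lowest in both. This gave a log2 fold change of -0.064 (standard error 0.10, 95% interval from -0.29 to 0.16).

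*Col18a1* (ENSMUSG00000001435), a multiplexin of basement membranes whose end can be released as endostatin, was at 135, 121, 169, 115 and 118 CPM in control and at 133, 145, 145, 120 and 120 CPM in *WD1* cKO replicates. Control replicate 3 stood above the other 9 libraries. Between the groups, the log2 difference was 0.016 (standard error 0.10, 95% interval from -0.20 to 0.23).

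*Col8a1* (ENSMUSG00000068196), a short chain of vessel walls and the cornea, was at 104, 127, 146, 127 and 97.5 CPM in control and at 127, 104, 146, 120 and 89.0 CPM in *WD1* cKO replicates. Replicate 3 was highest and replicate 5 lowest in each group. Its log2 fold change was -0.041 (standard error 0.13, 95% interval from -0.33 to 0.25). All 3 short chain genes have 2 coding exons, fewer than any other member.

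*Col23a1* (ENSMUSG00000063564), the most abundant transmembrane chain, was at 34.9, 32.2, 38.9, 31.1 and 31.1 CPM in control and at 34.3, 29.9, 38.4, 30.8 and 31.5 CPM in *WD1* cKO replicates. The groups covered the same range, with replicate 3 highest in each. The groups differed by -0.025 on the log2 scale (standard error 0.080, 95% interval from -0.20 to 0.15).

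Chains that assemble into the same trimers were compared as ratios of their levels per kb in each library, with an exact two-sided permutation test and Benjamini-Hochberg adjustment over 6 ratios. None of the 6 differed between the groups past the threshold. The ratio of *Col4a1* to *Col4a2* was 1.96 ± 0.0340 in control and 1.93 ± 0.0661 in *WD1* cKO embryos (SD, n = 5 in each group), with an exact permutation p of 0.516. Over the 10 libraries its coefficient of variation was 2.62%. That of *Col6a1* to *Col6a2* was 1.70 ± 0.0504 and 1.71 ± 0.0378 (SD, n = 5, exact permutation p = 0.563), with a coefficient of variation of 2.52%. On the log2 scale, the SD over the 10 libraries was 0.038 for the ratio of *Col4a1* to *Col4a2*, beside 0.13 for *Col4a1* and 0.11 for *Col4a2* alone. It was 0.036 for the ratio of *Col6a1* to *Col6a2*, beside 0.16 and 0.13 for the chains alone.

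The ratio of *Col1a1* to *Col1a2* was 1.79, 1.82, 1.72, 1.58 and 1.50 in control and 1.84, 1.84, 1.82, 1.73 and 1.69 in *WD1* cKO replicates (exact permutation p = 0.183, adjusted p = 0.365). Replicates 4 and 5 had the lowest ratios of both groups. The ratio of *Col4a5* to *Col4a6* was 12.6 ± 1.96 in control and 10.3 ± 1.58 in *WD1* cKO embryos (SD, n = 5, exact permutation p = 0.0714, adjusted p = 0.365), with overlapping groups. The ratios of *Col4a3* to *Col4a4* (0.714 and 0.768, exact permutation p = 0.175) and of *Col5a1* to *Col5a2* (1.04 and 1.06, exact permutation p = 0.778) also overlapped. The height of a ratio and its SD on the linear scale depend on the annotated exon lengths. Its coefficient of variation and its SD on the log2 scale do not.

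**Figure D5:**
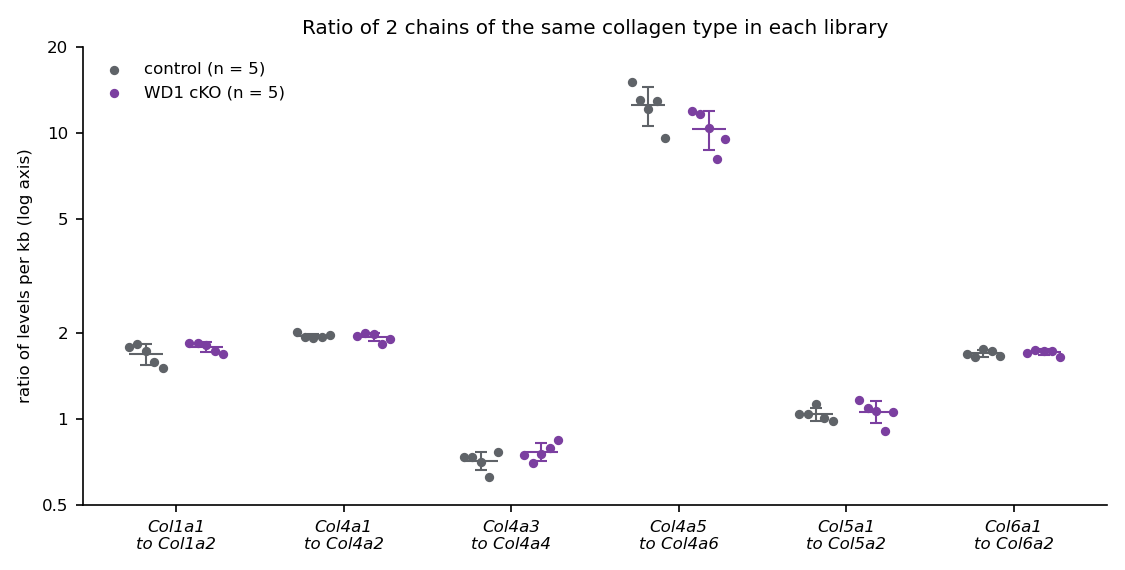
Ratio of the levels per kb of 2 chains (log axis) in each of 5 control (grey) and 5 *WD1* cKO (purple) libraries, in replicate order from left to right, with mean ± SD. The ratios of *Col4a1* to *Col4a2* and of *Col6a1* to *Col6a2* vary by 2.62% and 2.52% over the 10 libraries, and that of *Col4a5* to *Col4a6* by 17.9%.

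Genes that make, cut, bind and remove collagen were taken as 6 lists with 75 genes, of which 74 were tested. None had an adjusted p under 0.05 by edgeR's quasi-likelihood test. At an unadjusted p under 0.05, 6 were higher and 1 lower in *WD1* cKO embryos, 9.46% of the 74 against 4.50% of all genes. The lists were chosen with earlier results of these data known and their genes share the same libraries, so this count is only a description.

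Of 19 genes for chain modification and folding, 1 was higher and 0 lower at the unadjusted threshold. It was *Plod2*, a lysyl hydroxylase for cross-links, at 44.1 ± 2.82 CPM in control and 49.1 ± 4.51 CPM in *WD1* cKO embryos (SD, n = 5 in each group), with a log2 fold change of 0.16 (95% interval from 0.012 to 0.30). *Serpinh1*, the collagen chaperone Hsp47, and *P4hb*, a subunit of prolyl hydroxylase, were the most abundant, with log2 fold changes of 0.051 and 0.016.

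Of 14 genes for propeptide removal and cross-linking, 0 had an unadjusted p under 0.05 in edgeR's quasi-likelihood test. The most abundant were *Pxdn*, which cross-links type IV collagen, and *Bmp1*, which removes the carboxyl propeptide, with log2 fold changes of -0.018 and 0.051.

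Of 8 genes of collagen degradation, 2 were higher and 0 lower. *Ctsk*, a lysosomal collagenase, was at 20.4 ± 1.69 CPM in control and 22.5 ± 1.12 CPM in *WD1* cKO embryos (SD, n = 5; log2 fold change 0.14, 95% interval from 0.0064 to 0.28). *Mmp9*, a gelatinase, was at 3.37, 2.95, 4.61, 2.94 and 3.21 CPM in control and at 2.78, 9.23, 3.64, 4.57 and 5.98 CPM in *WD1* cKO replicates. *WD1* cKO replicate 2 was the highest and *WD1* cKO replicate 1 the lowest of the 10, so the groups overlapped. This gave a log2 fold change of 0.63 (standard error 0.28, 95% interval from 0.019 to 1.23). *Mmp14* and *Mrc2*, a membrane collagenase and an uptake receptor, were the most abundant, with log2 fold changes of -0.14 and -0.014.

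Of 10 collagen receptor genes tested, 0 were higher and 1 lower. *Ddr1*, a receptor tyrosine kinase for collagen, was at 108 ± 11.5 CPM in control and 97.4 ± 7.03 CPM in *WD1* cKO embryos (SD, n = 5; log2 fold change -0.15, 95% interval from -0.31 to -0.0011). Its highest library was control replicate 3, with 127 CPM. *Itgb1*, the beta subunit of the collagen-binding integrins, had a log2 fold change of 0.064.

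Of 12 fibril partners, 2 were higher and 0 lower. *Postn*, a matricellular protein that binds type I collagen, was at 445, 408, 438, 368 and 464 CPM in control and at 442, 490, 477, 506 and 500 CPM in *WD1* cKO replicates. All *WD1* cKO libraries but replicate 1 lay above all control libraries. Between the groups, the log2 difference was 0.19 (standard error 0.061, 95% interval from 0.055 to 0.32). *Lum*, a proteoglycan on fibrils, was at 33.1 ± 4.93 and 38.4 ± 1.57 CPM (SD, n = 5; log2 fold change 0.22, 95% interval from 0.028 to 0.41). *Sparc* and *Fn1*, the most abundant, had log2 fold changes of 0.039 and 0.0052.

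Of 11 basement membrane partners, 1 was higher and 0 lower. *Lama1*, an early laminin chain, was at 9.74 ± 1.41 CPM in control and 11.7 ± 1.33 CPM in *WD1* cKO embryos (SD, n = 5; log2 fold change 0.26, 95% interval from 0.029 to 0.49). *Agrn* and *Lamc1*, the most abundant, had log2 fold changes of -0.083 and 0.098.

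Markers of the cells that could supply collagen RNA were read in the same libraries. The 7 sensory neuron markers summed to between 6270 and 6654 CPM in control and between 6243 and 6507 CPM in *WD1* cKO libraries, and the 7 Schwann cell and satellite glia markers to between 993 and 1165 and between 973 and 1252 CPM, so the labelled tissue carries its defining genes. The 8 fibroblast markers summed to between 321 and 388 CPM in control and between 355 and 407 CPM in *WD1* cKO libraries. Of these, 2 were higher (*Lum* and *Meox1*) and 0 lower at an unadjusted p under 0.05 in edgeR's quasi-likelihood test. Such a p was found for 4.50% of all genes tested. *Lum* was already counted among the fibril partners and is not a further result. The endothelial markers (248 to 301 and 241 to 295 CPM), the mural cell markers (193 to 257 and 220 to 240 CPM) and the perineurium markers (152 to 189 and 156 to 193 CPM) overlapped between the groups, and none of their genes had an unadjusted p under 0.05 in edgeR's quasi-likelihood test.

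Markers of tissues beside the ganglia were read too, as sums that cannot be compared between lists. The 6 cartilage markers summed to between 39.5 and 47.8 CPM in control and between 32.3 and 45.0 CPM in *WD1* cKO libraries, with 1 gene lower at the unadjusted threshold (*Cnmd*) and *Ucma*, *Matn1* and *Matn3* under 1 CPM. The 6 bone markers summed to between 37.4 and 50.3 and between 40.0 and 55.8 CPM, with 1 gene higher (*Dmp1*) and *Dmp1* and *Bglap* under 1 CPM over the 10 libraries. The 6 meninges markers summed to between 91.3 and 168 and between 115 and 182 CPM. The 6 skeletal muscle markers summed to between 23.2 and 176 CPM in control and between 45.3 and 95.7 CPM in *WD1* cKO libraries. How far these tissues contribute to the collagen levels was not tested.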

How the data were processed

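Stranded mRNA libraries were made from the DRG of 5 control and 5 *WD1* cKO embryos. The authors aligned reads with STAR 2.7.8a to GRCm39 and counted them per gene with featureCounts 2.0.1, after bcl2fastq 2.20.0.422 per the labels. The deposited values are raw counts per gene and library, with totals from 19757596 to 34796562. The strand setting of the counting and the handling of reads with several matches are not given in the sources used here, so overlapping genes are uncertain.

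Counts were analysed with R 4.3.3 and edgeR 4.0.16 (at least 10 counts in at least 5 libraries, TMM scaling, quasi-likelihood test, Benjamini-Hochberg adjustment over 17490 genes). CPM are TMM-scaled, and ± gives the SD. Lengths (the union of exons), coding sequences and gene starts came from GENCODE M21 on GRCm38, matched by gene identifier for 44 of 44 members, and were used for no count. Chain ratios carry a prior count of 1. Every pair of libraries within a group was further apart than sampling noise allows (chi-square over its degrees of freedom 4.33 to 15.7), and each library counts as 1 replicate.

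Values in every library are given for the 6 members of highest mean CPM, the highest of each class, and members with an unadjusted p under 0.05 or no overlap between groups. Of each pathway list, the 2 highest genes and those with an unadjusted p under 0.05 are named, as is *Dach1*. The members, lists and tests were chosen with earlier results of these data known. *Xist*, the members named without control replicate 3, and the marker genes named were chosen after their values were seen. Alternatives were DESeq2 size factors, no filter, a mean count of at least 100, terms for replicate numbers, DESeq2 1.42.0 (Wald test), robust dispersions, a prior count of 0.25, each library left out and, added later, *Xist* as a covariate. The edgeR and DESeq2 fits were tried on simulated counts with known changes, where DESeq2 made more false calls than edgeR. A limit on false calls was set for the edgeR fits only. The exact permutation test was checked on known values.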

Additional observations from a re-analysis of the deposited data

Results flagged for a closer look

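In 5 of the 88 combinations of a collagen gene and a group, 1 library stood far from the other 4 by Dixon's criterion, where chance gives 4.4 at 1 in 20. *Col1a2* was at 1735 CPM in control replicate 3, beside 1210 to 1315 CPM in the other control libraries, and the report gives the values without that library. *Col15a1*, a multiplexin, was at 116 CPM in *WD1* cKO replicate 2, beside 96.1 to 101 CPM. *Col7a1*, the anchoring fibril chain, was at 7.30 CPM in control replicate 5, beside 5.67 to 5.91 CPM. *Col20a1*, a FACIT chain, was at 6.15 CPM in *WD1* cKO replicate 1, beside 3.25 to 3.84 CPM, and control replicate 1 was also the highest of its group, with 5.27 CPM. *Col9a1*, a type IX chain of cartilage, was at 2.13 CPM in control replicate 4, beside 2.90 to 3.12 CPM. The causes were not tested.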

How the results depend on the processing

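In the 18 alternative settings tried, 0 of the collagen genes tested had an adjusted p under 0.05, and the lowest adjusted p of any member was 0.50, for *Col1a1* with the replicate block (edgeR's quasi-likelihood test, adjusted by Benjamini-Hochberg). The number of members with an unadjusted p under 0.05, 1 in the report, was 0 when a mean count of 100 was required (38 members, without *Col4a6*) and 0 with *Xist* as a covariate, 2 with a term for replicate numbers 1 to 3 against 4 and 5 (*Col1a1* and *Col4a6*), and between 1 and 6 with libraries left out, the 6 without control replicate 3 and 2 (*Col4a5* and *Col4a6*) without *WD1* cKO replicate 4. The number past the p of 0.005 and the log2 fold change of 0.15, 0 in the report, lay between 0 and 1 with libraries left out, the 1 being *Col4a6* without control replicate 5.

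With the replicate block, 3 members (*Col1a1*, *Col4a6* and *Col11a1*) had an unadjusted p under 0.05, against 7.10% of all genes, and 1 (*Col1a1*) passed the p of 0.005 with a log2 fold change above 0.15. Samples of the same number share only a number: the deviations of same-numbered libraries from their group means correlated by 0.327, 0.0046, 0.347, 0.356 and 0.408 for numbers 1 to 5, and for 3 of the 5 numbers the best match was the library of the same number. This is a hint from the data and not from the design.

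With libraries left out, the median log2 fold change of the transmembrane class lay between 0.020 and 0.12, the highest without *WD1* cKO replicate 2. The class medians near 0 took either sign, in basement membrane (-0.10 to 0.023), type VI (-0.063 to 0.041), FACIT (-0.042 to 0.028, and 0.0033 with no filter on low counts), short chain (-0.14 to 0.042) and multiplexin genes (-0.020 to 0.086), while the fibrillar median stayed above 0 (0.021 to 0.10). The log2 difference of the ratio of *Col4a1* to *Col4a2* lay between -0.029 and 0.00171 and that of *Col5a1* to *Col5a2* between -0.013 and 0.077. Log2 fold changes near 0 took either sign, in *Col14a1* (-0.096 to 0.029), *Col6a2* (-0.098 to 0.011), *Col18a1* (-0.030 to 0.12), *Col8a1* (-0.14 to 0.042), *Col23a1* (-0.088 to 0.032), *P4hb* (-0.00298 to 0.038), *Pxdn* (-0.056 to 0.017), *Mrc2* (-0.14 to 0.074) and *Fn1* (-0.098 to 0.084). *Mrc2* was at 0.00943 with *Xist* as a covariate, and *Fn1* at -0.00161 with the term for replicate numbers 1 to 3 against 4 and 5. The other 917 values stayed on their side of the threshold, within 1.5-fold for a count, or, where no test applies, moved by less than the spread between libraries. The cause was not tested for those that changed. With 5 libraries a group, the intervals of 5 members reach beyond 1.5-fold.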
